A study of Mus musculus with 72 samples.

Results

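The p53 pathway genes described here were 10 mouse genes taken by name: Trp53, its inhibitors Mdm2 and Mdm4, the upstream tumour suppressor locus Cdkn2a, and the p53 targets Cdkn1a, Ccng1, Zmat3, Phlda3, Eda2r and Trp53inp1. All 10 were found among the 38951 gene names of the 4 count tables. The tables hold RNA-seq of 72 libraries from Eμ-Myc B-cell lymphomas, in which Myc is driven in B cells by an immunoglobulin heavy-chain enhancer. Every lymphoma also carried the retroviral MSCV vector with Gfp. Each mouse or cell line gave an input library, made from cytoplasmic RNA, and a polysomal library, made from RNA bound by 4 or more ribosomes.

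In the acute experiment, clone 4242 was transplanted into C57BL/6 mice, and the mice were treated on day 10 for 2 h. The groups, of 6 mice each, received CX5461 (35 mg/kg), the drug everolimus (5 mg/kg), both at these doses (the combination), or vehicle. Lymph nodes were sampled, so host cells were present beside the lymphoma cells, and all mice carried the same clone. CX5461 inhibits RNA polymerase I, the enzyme that transcribes the ribosomal RNA precursor, and everolimus inhibits the kinase complex mTORC1. In the relapse experiment, cell lines were grown for 2 to 3 passages from mice bearing clone 107 whose lymphoma had come back under CX5461, everolimus or the combination. Lines from vehicle mice, called naive by the submitters, were the controls. There were 3 lines in each group, numbered 14, 20 and 39 (CX5461), 4, 12 and 26 (everolimus), 8, 9 and 31 (combination) and 6, 33 and 38 (naive). The doses given to the relapse mice are not given in the sources used here. The labels do not say whether a drug was present in the culture of the relapse lines.

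p53 is a transcription factor that is kept low by Mdm2, a ubiquitin ligase that p53 itself induces, and by Mdm4, which blocks its activation domain. When ribosome production fails, ribosomal proteins and the 5S ribosomal RNA bind Mdm2 and free p53, and Arf, a product of Cdkn2a, binds Mdm2 as well when Myc is active. p53 then raises genes that stop the cell cycle, kill the cell or feed back on p53. In Eμ-Myc lymphomas the Arf, Mdm2 and p53 axis is the best known barrier that tumours lose. p53 is controlled largely at the level of its protein, which RNA counts do not show, and counts per gene do not show changes in the Trp53 sequence.

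The promoters of Cdkn1a, Trp53, Mdm2 and Ccng1 are shown because these were the members whose start region held a match to the p53 half-site consensus, the 10-base motif that p53 binds as a spaced pair. Sequences run from 250 bases before to 50 bases after the start of a RefSeq transcript on GRCm38.p6, 5′ to 3′ on the gene's strand, with half-site matches in capitals. The table had promoters for 8 of the 10 members, 11 in all.
Cdkn1a, chr17:29090729-29091028, plus strand: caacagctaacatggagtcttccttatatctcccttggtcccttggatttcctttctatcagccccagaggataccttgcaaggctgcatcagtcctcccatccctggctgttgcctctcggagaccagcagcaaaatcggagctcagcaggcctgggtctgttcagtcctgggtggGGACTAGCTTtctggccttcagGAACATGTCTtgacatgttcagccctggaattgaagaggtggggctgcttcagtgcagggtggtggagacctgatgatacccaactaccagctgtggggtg
Trp53, chr11:69580109-69580408, plus strand: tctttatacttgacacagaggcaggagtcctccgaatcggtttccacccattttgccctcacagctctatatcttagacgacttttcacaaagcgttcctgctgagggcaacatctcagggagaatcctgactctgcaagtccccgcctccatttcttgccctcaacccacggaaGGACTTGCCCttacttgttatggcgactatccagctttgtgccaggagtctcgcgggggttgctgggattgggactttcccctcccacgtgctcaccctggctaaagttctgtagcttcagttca
Mdm2, chr10:117710709-117711008, minus strand: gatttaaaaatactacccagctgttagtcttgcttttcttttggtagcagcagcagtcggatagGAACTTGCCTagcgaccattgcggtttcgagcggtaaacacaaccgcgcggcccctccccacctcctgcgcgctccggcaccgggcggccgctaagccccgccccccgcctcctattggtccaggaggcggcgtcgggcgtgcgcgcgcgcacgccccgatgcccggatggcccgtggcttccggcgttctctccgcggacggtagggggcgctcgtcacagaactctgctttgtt
Ccng1, chr11:40755237-40755536, minus strand: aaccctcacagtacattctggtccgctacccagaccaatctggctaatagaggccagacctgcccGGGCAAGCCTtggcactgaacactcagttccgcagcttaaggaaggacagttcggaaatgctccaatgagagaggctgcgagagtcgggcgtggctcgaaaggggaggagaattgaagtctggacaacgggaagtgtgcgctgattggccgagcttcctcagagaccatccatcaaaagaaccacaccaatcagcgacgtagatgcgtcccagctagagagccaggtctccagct
The motif reads the same on both strands. At least 1 half-site was present in 8.36% of the 32851 mouse promoters in the table, and a pair separated by at most 13 bases was present in 0.0731% of them. Cdkn1a alone among the 8 members with a promoter held such a pair, with half-sites starting 73 and 51 bases before the start. The other Cdkn1a promoter, at chr17:29093519-29093818, held no half-site. In Trp53, Mdm2 and Ccng1 the single half-site started 75, 186 and 185 bases before the start. The Trp53 promoter also contained CACGTG, the E-box that Myc binds, which was present in 7.15% of all promoters and overlapped no half-site. A match describes these letters and shows no binding.

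The libraries held 17079034 to 24702803 counts on genes in acute input, 11528341 to 20854565 in acute polysomal, 14566897 to 26016328 in relapse input and 15528791 to 30383886 in relapse polysomal RNA. Levels are given as counts-per-million (CPM) scaled by TMM, a normalisation that removes differences in composition, and were scaled separately in each table. Markers of B cells summed to 1390 to 2202 CPM over the input libraries of both experiments, and none of the 10 was at 0 in any group. Macrophage and myeloid markers summed to 608 to 920 CPM in acute input libraries and to 6.1 to 9.4 CPM in relapse input libraries, where C1qa was at 0 in all CX5461, everolimus and combination lines. In the relapse polysomal table, CX5461 lines 14 and 39 stood apart from the other 10 libraries, and their columns form a run of their own in that table. Where leaving them out changed a call, both values are given.

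Compared per length of exon, Trp53 had the highest level of the 10 genes in controls. In input RNA of vehicle lymph nodes it stood at 49.8 ± 5.41 reads per kilobase of exon scaled to depth as CPM (RPKM; SD, n = 6 mice), followed by Ccng1, which encodes cyclin G1, at 14.4 ± 1.17 RPKM. Trp53inp1, a target that promotes autophagy and cell death, came next at 10.5 ± 1.31 RPKM. Those 3 genes did not overlap each other or the genes below them. Mdm4 (5.08 RPKM), Mdm2 (4.55), Cdkn1a (3.25), Phlda3 (2.37), Zmat3 (1.70) and Cdkn2a (1.24) formed a chain in which each overlapped the next. Eda2r, a receptor of the tumour necrosis factor family, was lowest at 0.135 RPKM.
In the naive lines Trp53 was again first in input RNA, at 39.4 ± 2.17 RPKM (SD, n = 3 lines), and Ccng1 followed at 10.5 ± 0.724 RPKM. Cdkn1a, which encodes the cell-cycle inhibitor p21, came next at 4.77 ± 0.532 RPKM. Phlda3, which restrains Akt, was at 0.199 RPKM, and Eda2r had at most 1 count in any of the 24 relapse libraries and was not tested there.

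After 2 h of CX5461, none of the 10 genes passed the test in input RNA (edgeR quasi-likelihood, Benjamini-Hochberg adjusted over all genes, threshold 0.05), where 0.399% of 16055 genes did. At an unadjusted p below 0.05 there were 2, Cdkn1a and Cdkn2a, and DESeq2 called 0. Cdkn1a lies at chr17:29090976-29100727 on GRCm38 and shares 273 exon bases with an antisense transcript, AC167363.2, whose reads would not be separated if counting ignored strand. Its input level had a lowest, median and highest value of 10.7, 13.7 and 17.3 CPM in CX5461 mice, against 9.35, 11.97 and 13.97 CPM in vehicle mice. The groups overlapped, with 3 CX5461 mice above every vehicle mouse and 2 below the vehicle median. The log2 fold change was 0.29 ± 0.13 (SE), with a 95% interval of 0.03 to 0.55 and an adjusted p of 0.436.

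For Mdm2, Ccng1, Zmat3 and Trp53 the intervals were narrower. The log2 fold change of CX5461 over vehicle was 0.07 (95% interval −0.11 to 0.25) for Mdm2, 0.05 (−0.12 to 0.21) for Ccng1 and 0.07 (−0.11 to 0.26) for Zmat3, an RNA-binding protein that p53 induces. It was 0.02 (−0.19 to 0.23) for Trp53 itself. All 4 intervals spanned 0. Cdkn2a, whose counts do not separate the p16Ink4a and p19Arf transcripts, was low, with 87 counts over the 6 CX5461 mice against 181 over the 6 vehicle mice. Its log2 fold change was −0.82 ± 0.31 with an adjusted p of 0.35.
Polysomal RNA gave the same count: 0 of 10 members passed for CX5461 against vehicle, where 0.878% of 15374 genes did, with 2 at an unadjusted p below 0.05 and 0 by DESeq2. There Cdkn1a ran over 13.5, 18.4 and 22.2 CPM (lowest, median, highest) in CX5461 mice, against 11.4, 15.5 and 16.4 CPM in vehicle mice, a log2 fold change of 0.25 ± 0.14 (adjusted p = 0.407). Ccng1 ran over 56.7, 69.6 and 83.0 CPM in CX5461 mice, against 58.3, 60.8 and 64.3 CPM in vehicle mice. The spread of Ccng1 was wider after CX5461 and covered the whole vehicle range, with a log2 fold change of 0.18 ± 0.09 (adjusted p = 0.314).

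**Figure D1:**
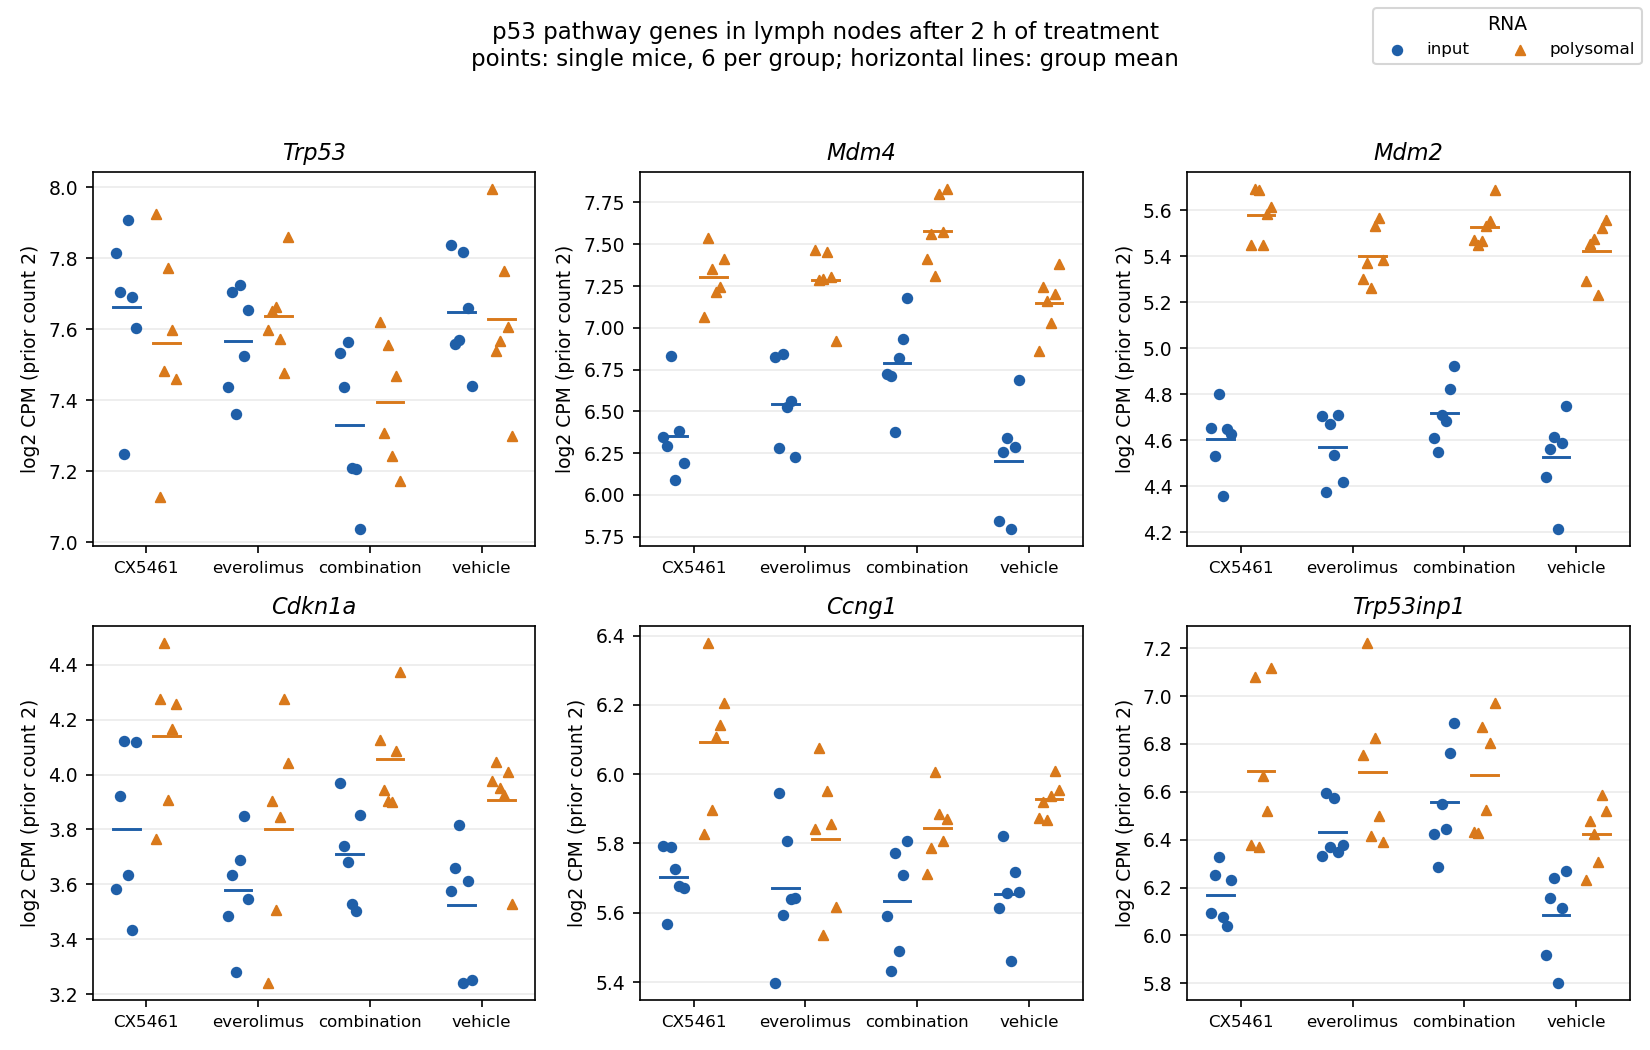
Level of 6 p53 pathway genes in acute lymph nodes, as log2 CPM with a prior count of 2, for CX5461, everolimus, combination and vehicle mice (6 each). Circles are input and triangles polysomal libraries of single mice, and lines are group means. In input RNA the 6 combination and the 6 everolimus mice all lie above the 6 vehicle mice for Trp53inp1.

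Everolimus alone also moved none of the 10 genes past the threshold in input RNA, against 0.106% of all genes. There were 4 at an unadjusted p below 0.05, and DESeq2 called 1, Trp53inp1. That gene, at chr4:11156431-11174379, ran over 80.5, 82.8 and 96.5 CPM (lowest, median, highest) in everolimus mice, against 55.6, 70.2 and 77.1 CPM in vehicle mice. All 6 everolimus mice were above all 6 vehicle mice, as for 0.343% of all genes tested. This gave a log2 fold change of 0.34 ± 0.09 (SE), with an adjusted p of 0.147 in edgeR.
In polysomal RNA 0 members passed for everolimus, against 0.15% of all genes, with 1 at an unadjusted p below 0.05 and 1 by DESeq2. Both refer to Phlda3, which ran over 1.79, 2.72 and 3.51 CPM in everolimus mice, against 3.48, 4.23 and 5.98 CPM in vehicle mice. Only the highest everolimus mouse reached the lowest vehicle mouse. Its log2 fold change was −0.69 ± 0.16 with an adjusted p of 0.072.

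Mdm4 and Trp53inp1 rose with the combination in input RNA, and no member fell. That is 2 of 10, beside 7.48% of all genes called in this comparison. 6 members were below an unadjusted p of 0.05, and DESeq2 called 3. Mdm4 lies at chr1:132959484-133030561. It ran over 82.9, 109 and 145 CPM (lowest, median, highest) in combination mice, against 55.5, 77.2 and 103 CPM in vehicle mice. The groups overlapped, with the combination median above the highest vehicle mouse, and the log2 fold change was 0.58 ± 0.15 (adjusted p = 0.0253).
Trp53inp1 ran over 77.8, 90.2 and 118 CPM in combination mice, against 55.6, 70.2 and 77.1 CPM in vehicle mice. All 6 combination mice exceeded all 6 vehicle mice, as for 1.03% of all genes, and the log2 fold change was 0.48 ± 0.09 (adjusted p = 0.00514). In lymph nodes, more cells of a type and more RNA per cell cannot be told apart.

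The share of reads that fell in no gene moved with these groups. It was 11.5, 13.8 and 19.7% (lowest, median, highest) in input libraries of combination mice, against 6.07, 10.4 and 14.9% in those of vehicle mice. With this share as a covariate, the Mdm4 log2 fold change in input RNA was 0.24 ± 0.08 and the call ended (adjusted p = 0.142). Trp53inp1 stayed past the threshold at 0.38 ± 0.10 (adjusted p = 0.0466).
Summed T cell markers were 77.4 to 91.1 CPM in CX5461 mice and 78.6 to 109 CPM in combination mice, against 106 to 133 CPM in vehicle mice. Of 12 such markers, 4 were called lower with CX5461 and 8 with the combination, and none was at 0. Summed markers of natural killer cells were 5.78 to 7.61 CPM in CX5461 mice and 4.42 to 7.20 CPM in combination mice, against 7.48 to 11.6 CPM in vehicle mice, and of 7 tested 1 and 3 were called lower. The part of these cells in the members' values was not tested.

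Trp53 went the other way without passing the test. It ran over 131, 161 and 189 CPM in input RNA of combination mice, against 174, 196 and 228 CPM in vehicle mice. The combination median lay below every vehicle mouse, and the log2 fold change was −0.31 ± 0.10 with an adjusted p of 0.0613. It passed by DESeq2 (adjusted p = 0.0373), and with the share of reads in no gene as a covariate it was −0.10 ± 0.07 (adjusted p = 0.627). When vehicle mouse 6 and combination mouse 3 were left out Trp53 also passed, at −0.40 ± 0.11 (adjusted p = 0.015). Phlda3 (−0.61 ± 0.22, adjusted p = 0.075) and Cdkn2a (−0.72 ± 0.30, adjusted p = 0.119) also had negative values that did not pass.
Cdkn1a ran over 11.2, 13.002 and 15.5 CPM in combination mice against the vehicle range above, a log2 fold change of 0.18 ± 0.13 (95% interval −0.08 to 0.44). For Ccng1 the interval was −0.19 to 0.15 and for Zmat3 −0.02 to 0.34.

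In polysomal RNA Mdm4 was the 1 member of 10 that rose with the combination, beside 7.42% of all genes called. It ran over 159, 189 and 227 CPM (lowest, median, highest) in combination mice, against 116, 145 and 167 CPM in vehicle mice. The overlap was confined to the lowest combination and the highest vehicle mice. The log2 fold change was 0.44 ± 0.10 (adjusted p = 0.0171), and it passed in all 8 alternative settings tried, the covariate above included (0.49 ± 0.08). In these libraries the share of reads with no gene was 9.12, 12.6 and 17% in combination mice, against 5.79, 13.8 and 26% in vehicle mice.
Trp53inp1 did not pass there: 85.9, 102 and 125 CPM in combination mice, against 74.9, 87.4 and 95.98 CPM in vehicle mice, with a log2 fold change of 0.26 ± 0.14 (adjusted p = 0.23). With the covariate, Trp53 was lower in polysomal RNA and passed, at a log2 fold change of −0.30 ± 0.10 (adjusted p = 0.0328, edgeR). The vehicle mice are shared by all 3 drug comparisons, so the comparisons are not independent of each other.

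The combination was also set against each single drug. Against CX5461 in input RNA, Trp53inp1 was the 1 member called, beside 0.866% of all genes. Its 65.6, 71.6 and 80.3 CPM in CX5461 mice were below most combination values, with a log2 fold change of 0.40 ± 0.09 for combination over CX5461 (adjusted p = 0.0405). It was not called in 3 of 8 alternative settings. Against everolimus in input RNA 0 members were called, with 1 at an unadjusted p below 0.05 and 0 by DESeq2, and edgeR called 0% of all genes.
In polysomal RNA, 2 members differed between combination and CX5461, beside 23.6% of all genes. Mdm4 was higher in the combination, by 0.28 ± 0.10 on the log2 scale (adjusted p = 0.0452), and this call held in 3 of 8 alternative settings. Ccng1 was lower: 52.3, 57.1 and 64.2 CPM in combination mice, against 56.7, 69.6 and 83.0 CPM in CX5461 mice. Its log2 fold change was −0.26 ± 0.09 (adjusted p = 0.0331), and 7 of 8 settings kept the call. Between combination and everolimus 0 members were called in polysomal RNA, beside 0.0195% of all genes, with 3 at an unadjusted p below 0.05 and 0 by DESeq2.

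Other genes of the pathway were read from 6 lists that had been chosen with earlier results of these data known. Beside the counts for the combination, 3.31% of all genes were called higher and 4.17% lower in input RNA, and 4.46% and 2.95% in polysomal RNA. Of 36 other p53 targets tested in acute input RNA, 0 were called with CX5461 and Sesn2, a sestrin that restrains mTORC1, fell by 0.67 on the log2 scale with everolimus (adjusted p = 0.0474, edgeR), beside 0.0623% of all genes called lower there. With the combination 2 rose and 3 fell. Pmaip1, which encodes the death factor Noxa, rose by 0.45 ± 0.12, and Btg2, an antiproliferative factor, by 0.42 ± 0.07. Gdf15, a stress-induced cytokine, had a log2 fold change of −1.01 ± 0.22 and Sesn2 one of −0.74 ± 0.14. The median over the 36 was −0.10, beside 0.00 over all genes.
None of the 21 tested genes on the list of ribosomal proteins and nucleolar factors that bind or act on Mdm2 was called in acute input RNA with CX5461, everolimus or the combination. Of 17 genes of the G1 machinery, 3 fell with the combination, among them Ccnd2 (−0.50 ± 0.13), which encodes cyclin D2, and Pcna (−0.33 ± 0.10). Of 20 cell-cycle genes that p21 lowers through the DREAM complex, 1 rose with the combination, the kinetochore gene Cenpf (0.74 ± 0.16), and 0 fell. In polysomal RNA the combination gave 3 other p53 targets higher and 4 lower of 36, with Btg2 again higher (0.42 ± 0.07) and Gdf15 again lower (−0.93 ± 0.25).

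**Figure D2:**
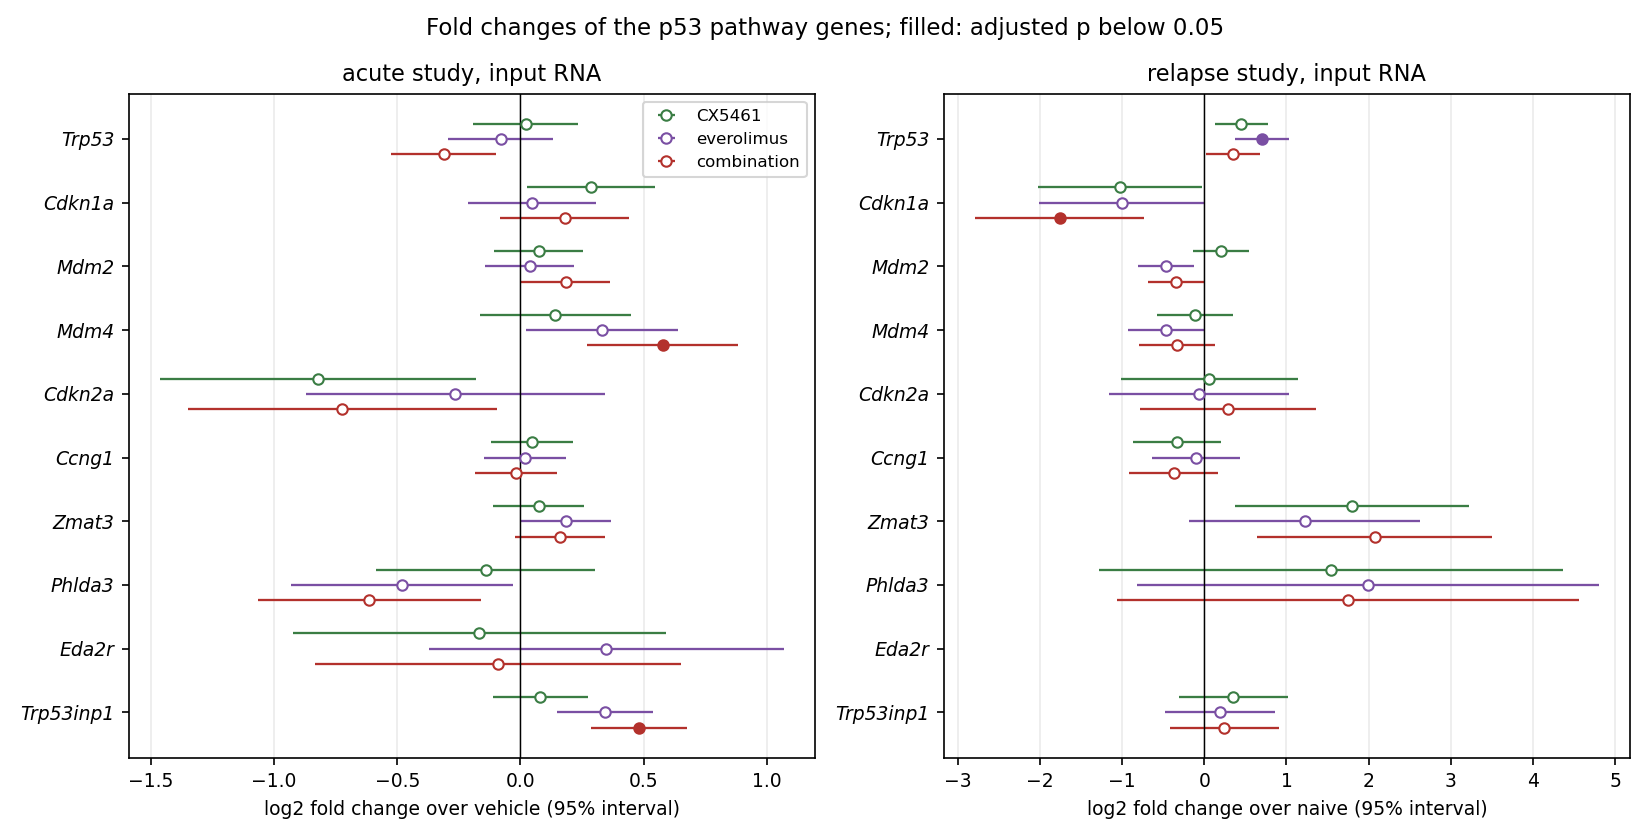
Log2 fold change of each of the 10 members for each drug over vehicle (left, acute) or naive (right, relapse), in input RNA; the axes differ in range. Bars are 95% intervals, and filled points have an adjusted p below 0.05: Mdm4 and Trp53inp1 with the combination in acute, Trp53 with everolimus and Cdkn1a with the combination in relapse. Eda2r was not tested in relapse.

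Relapse gave larger differences for a few members. Cdkn1a was below all 3 naive lines in each of the 9 relapse lines, in both fractions. In input RNA the CX5461 lines 14, 20 and 39 had 10.2, 6.07 and 8.59 CPM of Cdkn1a. The everolimus lines 4, 12 and 26 had 13.8, 4.66 and 7.06 CPM, and the combination lines 8, 9 and 31 had 6.56, 1.66 and 6.87 CPM. The naive lines 6, 33 and 38 had 19.1, 15.7 and 15.9 CPM.
The 9 lines spanned an 8.30-fold range and the 3 naive lines a 1.21-fold range. Being below every naive line in all 9 held for 5.64% of all 14474 genes tested in input RNA. Combination line 9 was lowest, with 39 counts.

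In polysomal RNA Cdkn1a stood at 13.8, 5.91 and 11.9 CPM in CX5461 lines 14, 20 and 39, and at 11.3, 5.80 and 6.64 CPM in everolimus lines 4, 12 and 26. Combination lines 8, 9 and 31 had 6.55, 1.94 and 4.71 CPM, against 19.05, 18.02 and 18.7 CPM in naive lines 6, 33 and 38. As in input RNA, combination line 9 was lowest, and CX5461 lines 14 and 39 and everolimus line 4 were the 3 highest of the 9.

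By group, Cdkn1a fell in the combination lines. Its log2 fold change over naive was −1.76 ± 0.47 in input RNA (SE, adjusted p = 0.0302) and −2.08 ± 0.45 in polysomal RNA (adjusted p = 0.018). In each of these comparisons it was the 1 member of 9 called, beside 13.5% of all genes in input and 10% in polysomal RNA. Both calls depended on single lines. Of 6 fits that left out 1 line each, 1 kept the input call (log2 fold change −2.05 to −1.33, adjusted p 0.0323 to 0.0732) and 3 kept the polysomal call (−2.48 to −1.73, adjusted p 0.0218 to 0.0608).
For CX5461 the input value was −1.03 ± 0.46 (adjusted p = 0.201) and for everolimus −1.01 ± 0.46 (adjusted p = 0.162), neither past the threshold. Between the combination and CX5461 or everolimus lines no member passed in input RNA, with 0 called, 1 at an unadjusted p below 0.05 and 0 by DESeq2 in each of these comparisons. edgeR called 0.0207% of all genes for combination against CX5461 and 0.719% for combination against everolimus.

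**Figure D3:**
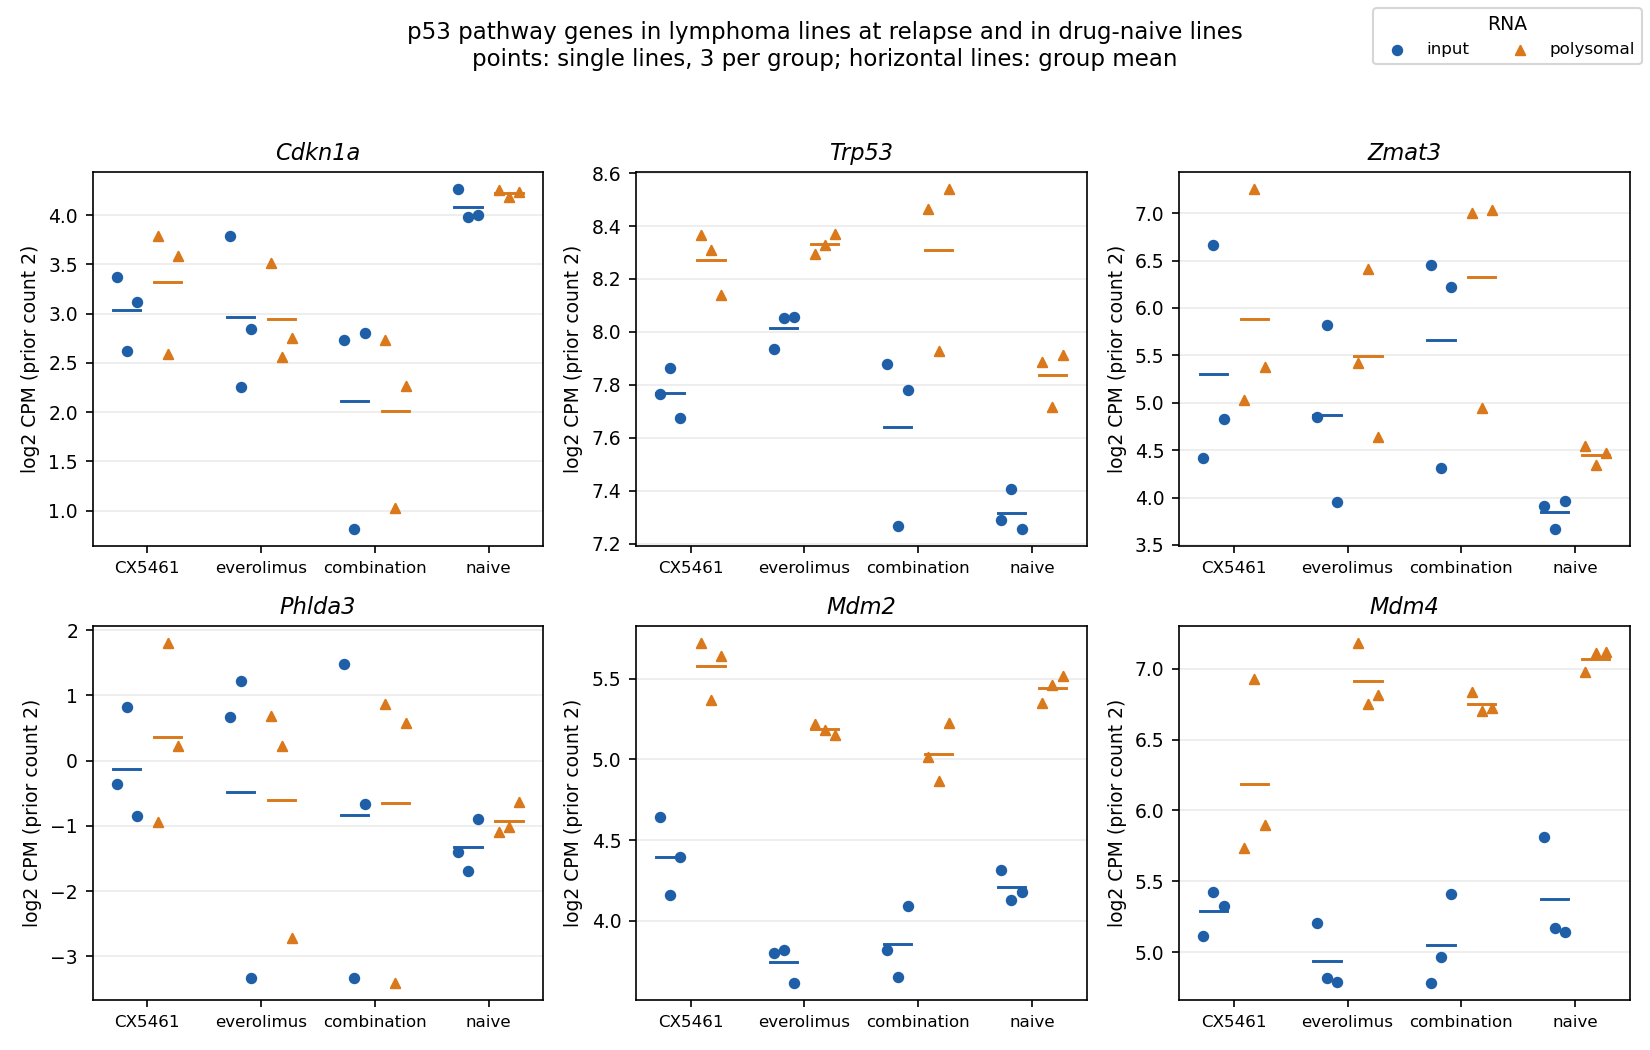
Level of 6 p53 pathway genes in relapse lines, as log2 CPM with a prior count of 2, for CX5461, everolimus, combination and naive lines (3 each). Circles are input and triangles polysomal libraries of single lines, and lines are group means. The 9 treated lines lie below the 3 naive lines for Cdkn1a in both fractions and above them for Trp53 and Zmat3 in polysomal RNA.

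Trp53, at chr11:69580359-69591873, was higher in relapse lines. In input RNA it had 218, 233 and 204 CPM in CX5461 lines 14, 20 and 39, and 245, 266 and 266 CPM in everolimus lines 4, 12 and 26. The combination lines 8, 9 and 31 had 235, 154 and 220 CPM, against 156, 169 and 153 CPM in naive lines 6, 33 and 38. Of the 9 lines, 8 were above all naive lines, and combination line 9 was level with them. The everolimus lines were the 3 highest of the 9.
The log2 fold change was 0.70 ± 0.15 for everolimus over naive in input RNA (adjusted p = 0.0194), where Trp53 rose as the 1 member of 9 called beside 11.7% of all genes. That call held in 3 of 6 fits that left out 1 line each (0.65 to 0.75, adjusted p 0.037 to 0.0779). For CX5461 the value was 0.45 ± 0.15 (adjusted p = 0.0838), and no member passed there, beside 8.37% of all genes, with 3 at an unadjusted p below 0.05 and 1 by DESeq2. For the combination it was 0.35 ± 0.15 (adjusted p = 0.139). In polysomal RNA the combination value was 0.49 ± 0.15 (adjusted p = 0.065), and 0.48 ± 0.15 without CX5461 lines 14 and 39 in the fit, which passed (adjusted p = 0.0414).

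All 9 relapse lines were above all naive lines for Trp53 in polysomal RNA. The CX5461 lines 14, 20 and 39 had 330, 317 and 282 CPM, the everolimus lines 4, 12 and 26 had 314, 321 and 330 CPM, and the combination lines 8, 9 and 31 had 353, 243 and 372 CPM. The naive lines 6, 33 and 38 had 236, 210 and 241 CPM. Combination line 9, at 243 CPM, was close to the highest naive line. Trp53 and Zmat3 were the 2 members above naive in all 9 lines in polysomal RNA, as were 3.93% of 14797 genes, and Cdkn1a was the 1 below in all 9, as were 4.55%. In input RNA no member was above naive in all 9 lines, beside 6.73% of genes.

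Because the 3 relapse groups stood on the same side for Cdkn1a and Trp53, their mean was also set against naive. This comparison was added after the values were seen and uses the same lines. In input RNA Trp53 rose by 0.50 ± 0.13 on the log2 scale (adjusted p = 0.0192) and Cdkn1a fell, with a log2 fold change of −1.26 ± 0.35 (adjusted p = 0.0283). These were 2 of 9 members, beside 18.3% of all genes. Of 12 fits without 1 line each, 10 kept the Trp53 call and 8 the Cdkn1a call.
In polysomal RNA the values were 0.47 ± 0.13 for Trp53 (adjusted p = 0.0453) and −1.38 ± 0.33 for Cdkn1a (adjusted p = 0.0289), 2 of 9 members beside 8.58% of all genes. There 2 of 12 fits kept the Trp53 call and 7 the Cdkn1a call. Without CX5461 lines 14 and 39 the values were 0.48 ± 0.13 (adjusted p = 0.0432) and −1.67 ± 0.30 (adjusted p = 0.00636).

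Zmat3, at chr3:32334792-32366014, also varied widely between relapse lines. Input RNA held 21.3, 101 and 28.2 CPM in CX5461 lines 14, 20 and 39, and 28.6, 56.3 and 15.4 CPM in everolimus lines 4, 12 and 26. It held 87.3, 19.8 and 74.6 CPM in combination lines 8, 9 and 31, against 14.99, 12.6 and 15.5 CPM in naive lines 6, 33 and 38. CX5461 line 20 and combination lines 8 and 31 were the 3 highest, and everolimus line 26 was within the naive range. The 9 lines spanned a 6.58-fold range, against 1.23-fold for naive.
Polysomal levels followed the same lines: 32.5, 153 and 41.4 CPM in CX5461 lines 14, 20 and 39, 42.7, 84.7 and 24.8 CPM in everolimus lines 4, 12 and 26, and 128, 30.8 and 131 CPM in combination lines 8, 9 and 31. The naive lines 6, 33 and 38 had 23.3, 20.2 and 22.03 CPM. No group passed the test. For the combination the log2 fold change was 2.07 ± 0.66 in input RNA (adjusted p = 0.0556) and 2.14 ± 0.70 in polysomal RNA (adjusted p = 0.0774), and DESeq2 called both (adjusted p = 0.03 and 0.022). With the run of columns as a term both also passed, at 2.05 ± 0.65 and 2.09 ± 0.48 (adjusted p = 0.0367 and 0.0071, edgeR). For all relapse lines over naive it was 1.70 ± 0.58 (adjusted p = 0.0599) and 1.72 ± 0.61 (adjusted p = 0.107), in input and polysomal RNA in that order. Without CX5461 lines 14 and 39 the polysomal values passed, at 2.05 ± 0.47 for all relapse lines (adjusted p = 0.0192) and 2.13 ± 0.51 for the combination (adjusted p = 0.0143). CX5461 line 20 alone then stood at 2.80.

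Phlda3 was low but split along some of the same lines. In input RNA CX5461 line 20, everolimus line 12 and combination line 8 had 1.68, 2.24 and 2.71 CPM, against 0.278, 0.212 and 0.441 CPM in naive lines 6, 33 and 38. Everolimus line 26 and combination line 9 had 0 counts, which allows up to 0.186 and 0.127 CPM at 3 counts per library. In polysomal RNA CX5461 line 20 again had the most, 3.39 CPM, and combination line 9 again had 0 counts, which allows up to 0.157 CPM. The everolimus line 26 and combination line 9 that lacked Phlda3 counts were also the 2 lines with the lowest input Zmat3 of the 9.
Across the 9 lines the order differed between members. Combination line 9 combined the lowest Cdkn1a with low Zmat3 and with Trp53 at the naive level, and CX5461 line 20 combined low Cdkn1a with the highest Zmat3. These line patterns are a description of single lines with 1 library per fraction.

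Mdm2, at chr10:117688875-117710758, differed in side between the drugs without passing the test. In input RNA it stood at 24.9, 17.7 and 20.9 CPM in CX5461 lines 14, 20 and 39, at 13.8, 14.03 and 12.1 CPM in everolimus lines 4, 12 and 26, and at 14.05, 12.5 and 16.99 CPM in combination lines 8, 9 and 31. The naive lines 6, 33 and 38 had 19.8, 17.4 and 17.97 CPM. All 6 lines that had seen everolimus were below all naive lines, and 2 of 3 CX5461 lines were above them. The share of all genes with this order was not counted. No group passed: the log2 fold change was −0.46 ± 0.16 for everolimus (adjusted p = 0.075), −0.34 ± 0.16 for the combination (adjusted p = 0.163) and 0.21 ± 0.16 for CX5461 (adjusted p = 0.483). With the run of columns as a term the everolimus value passed, at −0.47 ± 0.16 (adjusted p = 0.0415). The difference between combination and CX5461 was −0.55 ± 0.16 (adjusted p = 0.454).
In polysomal RNA the combination value was −0.40 ± 0.13 (adjusted p = 0.0721), and it passed at −0.41 ± 0.12 without CX5461 lines 14 and 39 in the fit (adjusted p = 0.0274).

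For Mdm4 and Ccng1 the CX5461 lines were far apart in polysomal RNA. Mdm4 had 53.1 and 59.4 CPM in lines 14 and 39 and 122 CPM in line 20, against 126, 139 and 139 CPM in naive lines 6, 33 and 38. Ccng1 had 29.7 and 34.8 CPM in lines 14 and 39 and 88.1 CPM in line 20, against 67.9, 69.6 and 77.8 CPM in the naive lines. Line 20 was close to naive for Mdm4 and above naive for Ccng1. With all 3 lines the log2 fold change over naive was −0.78 ± 0.27 for Mdm4 (adjusted p = 0.0611) and −0.50 ± 0.36 for Ccng1 (adjusted p = 0.328). Each line was left out in turn. Without line 20 both fell, to −1.27 ± 0.14 for Mdm4 (adjusted p = 9.44e-06) and −1.17 ± 0.21 for Ccng1 (adjusted p = 0.000533). The CX5461 group in this fit held lines 14 and 39 alone, whose columns form a run of their own. Drug and run cannot be told apart there, and the share of all genes called in this fit is not given. Line 20 by itself stood at −0.15 for Mdm4 and 0.29 for Ccng1. In the comparison with all 3 CX5461 lines 0 of 9 members passed, beside 19.5% of all genes, with 4 at an unadjusted p below 0.05 and 3 by DESeq2.
For everolimus in polysomal RNA 0 of 9 passed, beside 0.115% of all genes, with 3 at an unadjusted p below 0.05 and 1 by DESeq2, Trp53inp1. Its level was 169, 106 and 125 CPM in everolimus lines 4, 12 and 26, against 70.9, 73.2 and 79.3 CPM in naive lines 6, 33 and 38, a log2 fold change of 0.84 ± 0.24 (adjusted p = 0.311). With the run of columns as a term it passed, at 0.82 ± 0.16 (adjusted p = 0.0163). All 3 everolimus lines were above all naive lines, and the share of all genes with this order was not counted. Cdkn2a stayed between 0.499 and 1.67 CPM in every relapse input library, and no group differed past the threshold.

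Among the other lists, the calls for all relapse lines over naive are read beside 9.02% of all genes called higher and 9.32% lower in input RNA, and 3.7% higher and 4.89% lower in polysomal RNA. Of 20 cell-cycle genes that p21 lowers through DREAM, 0 rose and 6 fell in input RNA, with a median of −0.23, beside −0.02 over all genes. Cenpf had a log2 fold change of −1.02 ± 0.16 and Prc1, a spindle protein, one of −0.67 ± 0.16. With everolimus alone 1 of the 20 rose in input RNA, the transcription factor gene Mybl2 (0.46 ± 0.13, adjusted p = 0.0446, edgeR), and 4 fell. In that comparison 6.25% of all genes were called higher and 5.46% lower. Mybl2 did not pass in any of the 6 fits that left out 1 line (0.35 to 0.55, adjusted p 0.0685 to 0.164). In polysomal RNA of all relapse lines 0 rose and 5 fell, among them Foxm1 (−0.73 ± 0.10).
Of 33 other p53 targets, 3 rose and 4 fell in input RNA. Ephx1, an epoxide hydrolase, rose by 2.32 ± 0.74 and Sesn2 by 0.55 ± 0.15, and Pmaip1 had a value of −0.86 ± 0.22. In polysomal RNA 2 rose, Ephx1 (3.04 ± 0.66) and the death effector Bax (0.60 ± 0.14), and 0 fell.
Of 16 genes of the G1 machinery 4 rose and 3 fell in input RNA. Cdkn2b, which encodes the inhibitor p15 beside Cdkn2a, rose by 1.32 ± 0.39 and Cdk6 by 0.69 ± 0.22. Ccnd2 had a log2 fold change of −3.25 ± 0.49 and Rb1, the retinoblastoma gene, one of −0.75 ± 0.23. Of 15 regulators of the Cdkn2a locus 3 rose and 6 fell, with Myc up by 0.84 ± 0.14 and Ezh2, a repressor of the locus, at −1.03 ± 0.12. The nucleolar list had 3 higher and 2 lower of 21, with Bop1, a ribosome assembly factor, up by 0.78 ± 0.12 and Rpl23 at −0.73 ± 0.14. Of 19 p53 modifiers and stress kinases, 2 rose and 2 fell, among them Wrap53, a gene beside Trp53 (0.50 ± 0.12), and the checkpoint kinase gene Chek1 (−0.70 ± 0.18).

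Mdm2 and Mdm4 were higher in polysomal than in input RNA. In vehicle lymph nodes, on a scale shared by both fractions, the log2 difference of polysomal over input RNA was 0.60 ± 0.05 for Mdm2 (adjusted p = 2.64e-10) and 0.65 ± 0.08 for Mdm4 (adjusted p = 9.79e-08). Zmat3 was also higher in polysomal RNA, by 0.25 ± 0.08 (adjusted p = 0.0109), and Trp53 lower, at −0.32 ± 0.07 (adjusted p = 0.000365). These 4 of 10 members stand beside 56.9% of all genes called, and beside a median of −0.07 over all genes. Mouse by mouse, over all 4 groups, polysomal exceeded input RNA for Mdm2 in 24 of 24 mice (0.32 to 0.91, median 0.57). The same held for Mdm4 in 24 of 24 (0.19 to 0.99, median 0.57), and for Trp53 in 1 of 24 (−0.83 to 0.04).
In the naive lines Mdm2 (0.58 ± 0.10), Mdm4 (1.04 ± 0.22) and Trp53inp1 (1.21 ± 0.21) were higher in polysomal RNA and Cdkn1a was lower (−0.52 ± 0.17, adjusted p = 0.0261). This made 4 of 9, beside 44.1% of all genes and a median of −0.10. The Cdkn1a call was lost without any 1 of the 3 naive lines. Over all 12 relapse lines Mdm2 was higher in polysomal RNA in 12 (0.34 to 0.91), Trp53inp1 in 12 (0.56 to 1.91) and Cdkn1a in 0 (−1.21 to −0.25). Mdm4 was higher in 10 of 12, the exceptions being CX5461 lines 14 and 39. Trp53inp1 had no such difference in lymph nodes, where 12 of 24 mice were above 0. The acute and relapse sets differ in clone and in tissue against culture, which cannot be told apart.

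**Figure D4:**
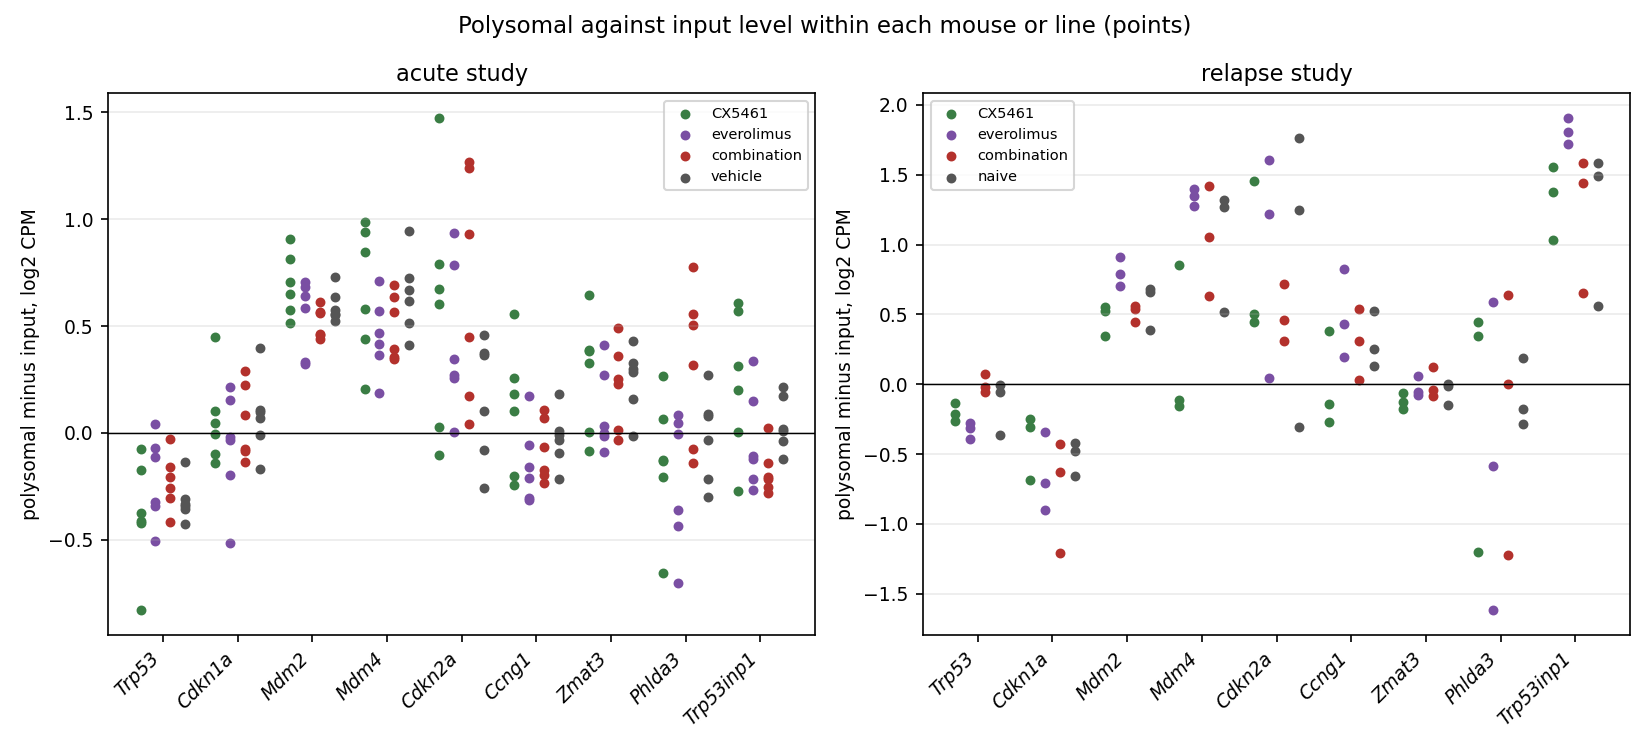
Log2 CPM of polysomal minus input RNA on a shared scale for 9 members (Eda2r left out), with 1 point for each of the 24 acute mice (left) and 12 relapse lines (right), coloured by group. Mdm2 lies above 0 in all 24 mice and all 12 lines, and Cdkn1a lies below 0 in all 12 relapse lines.

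A change of this polysomal-to-input ratio with a drug, that is of translational efficiency, was tested as the interaction of fraction and treatment with mouse or line as a block. No member was called in any acute comparison: 0 of 10 for CX5461 (0% of 16421 genes), 0 for everolimus (0%) and 0 for the combination (0%), with 0 members at an unadjusted p below 0.05 and 0 by DESeq2 in all of these. The largest acute values were those of 2 low genes with the combination, 0.50 ± 0.26 for Cdkn2a (adjusted p = 0.407) and 0.36 ± 0.18 for Phlda3 (adjusted p = 0.398).
In relapse 0 of 9 members were called for CX5461 (0% of 15637 genes), everolimus (0%) or the combination (0%), and DESeq2 called 0. At an unadjusted p below 0.05 there was 1 for CX5461, Mdm4, at −0.84 ± 0.31 (adjusted p = 0.202), and 0 for the others. Mdm4 passed when line 20 was left out, at −1.18 ± 0.25 (adjusted p = 0.00382), which leaves CX5461 lines 14 and 39 alone in their group. Their polysomal columns form a run of their own, so drug and run cannot be told apart in that fit.

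Genes with the most similar pattern to Cdkn1a and Trp53 are given as a description, by Pearson's r of log2 CPM over input libraries of 1 experiment, which share the clone and, in the acute set, the day. Over 24 acute libraries the 5 genes closest to Cdkn1a among 10848 were Mrc1 (r = 0.80), C3ar1 (0.78), Lcn2 (0.77), Ccl9 (0.77) and Msr1 (0.76). Mrc1 and Msr1 are macrophage receptors. Summed macrophage and myeloid markers were 636 to 920 CPM in CX5461 mice, 616 to 796 in everolimus mice and 608 to 662 in combination mice, against 628 to 713 CPM in vehicle mice, and their part in the acute Cdkn1a values was not tested. The closest member to Cdkn1a was Ccng1, at r = 0.24.
For Trp53 the 5 closest were Sec13 (r = 0.98), Ptbp1, Phgdh, Gm5559 and Gnb2. Members on the opposite side were Mdm4 (r = −0.89), Mdm2 (−0.80), Trp53inp1 (−0.68), Zmat3 (−0.64) and Cdkn1a (−0.13), and Ccng1 stood at 0.08. Ranked from the highest r among the 10848 genes, Mdm4 was 10742 and Mdm2 10267. The part of the share of reads in no gene in these values was not tested. Over the 12 relapse libraries, Cdkn1a was closest to Kcnk6 (r = 0.95), Thbd, Gm5939, Cpn1 and Arhgap12, and Mdm2 stood at r = 0.52.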

How the data were processed

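RNA-seq was read from 4 tables of deposited read counts per gene, one for each experiment and fraction. Per the submitters' processing notes the authors used TopHat2, HTSeq and GRCm38; versions, annotation and strand setting are not given in the sources used here. Libraries were depleted of ribosomal RNA and read as 50-base single ends, per the labels' protocols. No column was left out (0 columns), and reads with no gene stayed out of library sizes. Counts were filtered with filterByExpr, scaled by TMM and tested with edgeR 4.0.16's quasi-likelihood test in R 4.3.3, all 4 groups of a table in 1 fit, with Benjamini-Hochberg adjustment over all genes tested. Values after ± are SE unless marked SD. Translational efficiency was the interaction of fraction and treatment with mouse or line as a block. DESeq2 1.42.0, RLE factors, no filter, 2-group fits and fits without single libraries were alternatives. The fits were tested on simulated counts with planted changes. For combination over vehicle, acute input RNA gave back 73.1% of 1.5-fold and 94% of 2-fold changes, and acute polysomal RNA 88.1% and 97%. For combination over naive, relapse input RNA gave back 1.49% and 40.3%, and relapse polysomal RNA 1.49% and 31.3%. A relapse gene without a call may therefore still differ by 2-fold. Gene positions and exon lengths come from GENCODE M21 on GRCm38.

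The members and lists were chosen with earlier results of these data known. All 10 members were named in every comparison; of each other list, up to 2 genes per direction with the largest fold change past the threshold. Lines and mice are separate animals per the labels, but each experiment uses 1 clone, so p-values measure the spread between animals of that clone. No pair of libraries agreed within sampling noise; the closest, everolimus mice 1 and 3 in acute input, differed by 1.28 times the sampling variance.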

Additional observations from a re-analysis of the deposited data

Results flagged for a closer look

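In 80 groups of 6 mice (10 genes, 4 groups, both fractions), 3 had 1 mouse far from the other 5 by Dixon's test at the 95% level; chance gives about 1 in 20. Cdkn1a was 11.4 CPM in polysomal RNA of vehicle mouse 6, against 15.1 to 16.4 CPM in the other vehicle mice. Mdm4 was 121.0 CPM in polysomal RNA of everolimus mouse 6, against 155.8 to 176.6 CPM in the others. Phlda3 was 4.09 CPM in input RNA of combination mouse 3, against 1.75 to 2.31 CPM in the others.

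In 5 cases of a gene, fraction and drug, every acute mouse lay on one side of the vehicle mean and every relapse line on the other side of the naive mean. The search covered all 10 genes, both fractions and the CX5461, everolimus and combination groups. The share of all genes with this order was not counted. None of these differences between experiments was tested, and the experiments differ in clone, in time under drug and in tissue against culture, which cannot be told apart. As differences of mean log2 CPM from the control, Mdm2 with the combination was 0.19 in acute and −0.35 in relapse input RNA, and 0.1 in acute and −0.41 in relapse polysomal RNA. Mdm4 with everolimus was 0.34 in acute and −0.44 in relapse input RNA, and with the combination 0.43 in acute and −0.32 in relapse polysomal RNA. Trp53 with the combination was −0.23 in acute and 0.47 in relapse polysomal RNA.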

How the results depend on the processing

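Over all alternatives, 2324 of 2470 values of single members were counted as unchanged, 48 lost a call and 77 gained one. A further 21 values without a call were counted as changed in sign, and 0 changed direction after a call. The values counted as unchanged kept their side of the threshold but not always their sign, so the 21 leaves out some sign changes. For example, Cdkn2a in polysomal RNA of all relapse lines over naive was counted as unchanged in both of 2 settings with opposite signs. It was 0.05 with the run of columns as a term and −0.0915 without CX5461 lines 14 and 39. Counts of members called moved as follows, with the cause not tested except where fewer libraries entered. For acute input RNA, the number of all genes called is given beside them. For the other tables the share of all genes is given above for the main fits and is not given for the alternatives. A moved count there is therefore not read as a result about the members.

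In acute input RNA, everolimus gave 0 members (17 of all genes) and 1 by DESeq2 (123 of all genes). The combination gave 2, and 5 when vehicle mouse 6 and combination mouse 3 were left out. It gave 1 with the share of reads in no gene as a covariate, an alternative chosen after seeing the data. Calls over all genes moved the same way, from 1201 to 3590 and to 223. Combination against CX5461 gave 1 (139 of all genes), and 3 by DESeq2 (1247 of all genes). It gave 0 in a fit of the 2 groups alone (7), and 0 without CX5461 mice 4 and 6 and everolimus mouse 2 (0). It gave 4 when vehicle mouse 6 and combination mouse 3 were left out (1240), and 0 with the covariate (19). In acute polysomal RNA everolimus gave 0, 1 by DESeq2 and 1 with the covariate. The combination gave 1, and 2 without vehicle mouse 6 and combination mouse 3. With the covariate it gave 2, Mdm4 and Trp53. Combination against CX5461 gave 2, and 1 with RLE factors, with no filter, in the 2 groups alone and with the replicate block, and 0 without vehicle mice 2, 5 and 6 and CX5461 mouse 6.

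In relapse input RNA, CX5461 gave 0, 1 by DESeq2, 2 with no filter, 1 in the 2 groups alone, 1 with the run of columns as a term (Trp53, a setting added after seeing the data) and 0 to 1 without single lines. Everolimus gave 1, 2 by DESeq2, 4 with no filter, 3 with the run term (Trp53, Mdm2 and Mdm4) and 0 to 1 without single lines. The combination gave 1, 2 by DESeq2, 3 with no filter, 2 in the 2 groups alone, 2 with the run term and 0 to 2 without single lines. Combination against everolimus gave 0 and 1 with no filter. All relapse lines gave 2, 4 with no filter, 4 with the run term and 0 to 3 without single lines. In relapse polysomal RNA, CX5461 gave 0, 3 by DESeq2 and 0 to 3 without single lines. CX5461 lines 14 and 39 alone form 1 run of columns there. With the run term, or without these lines, the CX5461 value rests on line 20 alone. Zmat3 was 2.63 and 2.80 in these fits, and Trp53inp1 was 1.00 and 0.70. Everolimus gave 0, 1 by DESeq2 and 2 with the run term (Cdkn1a and Trp53inp1). The combination gave 1, 4 by DESeq2, 3 in the 2 groups alone, 4 with the run term (Trp53, Cdkn1a, Mdm2 and Zmat3), 4 without CX5461 lines 14 and 39 and 0 to 2 without single lines. All relapse lines gave 2, 4 by DESeq2, 1 with no filter, 4 with the run term and 0 to 6 without single lines, the 6 without CX5461 line 20. Translational efficiency with CX5461 in relapse gave 0, 1 with no filter and 0 to 1 without single lines.

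The replicate numbers did not pair the mice: same-numbered mice correlated at a mean of 0.0115 in input and −0.0265 in polysomal RNA, above 0.1 in 14 and 12 of 36 pairs. With the replicate block, the count for combination against CX5461 in polysomal RNA was 1, and no other count moved. Of 2121 values of the other named genes, 546 lost their call and 2 changed sign: Gls2 in polysomal CX5461 lines over naive was 1.67 with all lines, −0.23 with the run term and −0.33 without CX5461 lines 14 and 39.

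With 3 lines per group, calls in relapse rest on single lines. Cdkn2a and Phlda3, with group means of 0.310 to 1.25 CPM in relapse input RNA, carry wide intervals there. Eda2r was not tested in relapse, and with acute group means of 0.629 to 1.01 CPM it carries wide intervals in acute.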
